A study of Mus musculus with 4 samples.

Results

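The genes described here are those listed under a provisional or antisense name. They were chosen by the letters of the symbol alone: GM followed only by digits, a symbol ending in RIK with or without a digit, or a symbol ending in OS or OS plus a digit. This rule found 234 genes among 3117 listed, with 56 GM genes, 156 RIK genes and 22 OS genes. The other 2883 listed genes served for comparison. All samples came from B16F10, an established mouse melanoma cell line, as Carm1 KO cells or as control cells labelled WT, and no other allele or agent is given. Carm1 encodes an arginine methyltransferase that modifies histones and proteins of transcription. In the assay, mNET-seq (native elongating transcript sequencing of mammalian cells), a nuclease cuts chromatin, an antibody pulls down RNA polymerase II (Pol II), and the nascent RNA that comes with it is sequenced. Each kind of cell gave 1 library with an antibody to Pol II phosphorylated at serine 2 of its carboxy-terminal domain (Ser2P) and 1 with an antibody to that domain (clone 8WG16).

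Whether the Carm1 KO cells are 1 clone is not given in the sources used here. Per the labels' protocols, 3 sets of cells were pooled into each library, so the 4 libraries carry no replicate and every difference describes these libraries only. In such bulk libraries a change in a share of the cells and a smaller change in every cell cannot be told apart. The deposited tables give a linear ratio of Ser2P signal to another signal at the transcription start site (TSS) and at the transcription end site (TES). The divisor is not given in the sources used here, nor are read counts, so the depth is unknown and no counting interval could be set. A low ratio, or one shared by several genes, may rest on few reads, and a large fold then too, which could not be checked. Changes of Ser2P and of the signal it was divided by cannot be told apart. Values were assigned to Carm1 KO and control by column name. Carm1 itself was not analysed here. Of 8 melanocyte markers 6 were listed, SOX10, TYR, TYRP1, PMEL, MLANA and MC1R, while 0 of 4 fibroblast and 0 of 4 leukocyte markers were.

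Names of this kind carry little functional information. GM numbers mark predicted mouse gene models, RIK names come from the RIKEN collection of full-length mouse cDNAs, and OS stands for opposite strand, a transcript read from the strand opposite to a named gene. Many mammalian promoters fire in both directions, and the transcript leaving against a coding gene is usually short, little spliced and soon ended. Pol II leaving a promoter carries little Ser2P, which is added by elongation kinases as transcription proceeds and is highest towards the ends of genes, where cleavage and polyadenylation factors bind the phosphorylated tail.

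The annotation placed most of these genes among long noncoding RNAs. Of the 234 genes, 217 were found by symbol in GENCODE M21 on GRCm38. Of these, 145 were long noncoding (53 antisense, 40 lincRNA, 33 processed transcripts and 19 bidirectional promoter lncRNAs), 54 were protein coding, 14 were pseudogenes, 3 were TEC, models awaiting experimental evidence, and 1, GM25500, was a small nucleolar RNA. Another 16 had a RefSeq symbol (11 lncRNA, 4 coding, 1 transcribed pseudogene), and A730008H23RIK was a RefSeq synonym of the coding gene Hjurp. Some names fit the rule by their letters only. SELENOS encodes a selenoprotein of the endoplasmic reticulum, MINOS1 a subunit of the inner membrane organizing system of mitochondria, and SLC7A6OS a protein as well. PPIFOS, read opposite to Ppif, ends in FOS and was kept because the exception for FOS was taken to mean the gene Fos.

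They were shorter than the rest and often shared a promoter region. Their median annotated length was 7303 bp, against 18970 bp for the other listed genes, with a median of 3 exons against 9. A gene on the opposite strand started within 1 kb, called head to head here, at 125 of the 217 annotated genes (57.6%), against 997 of 2860 other genes (34.9%). The term takes in pairs that overlap at their starts as well as pairs that point apart. The start lay inside a gene of the opposite strand for 85 (39.2%), against 571 of the 2860 other genes. The strand setting of the counting is not given in the sources used here, and without it reads of a gene and of its opposite-strand neighbour cannot be told apart.

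The 4 printed sequences are the RefSeq promoter windows (GRCm38.p6, 250 bases before to 50 bases after the start, on the strand of the OS gene) of OS genes that the comparisons turn on. Cep83os and Mkln1os moved opposite to their sense partners past 1.5-fold at the TES and at the TSS in turn, Stamos has a sense partner that fell at the TES, and Tomm6os had the highest start ratio in control cells. Capitals mark the letters GGGCGG, known as a GC box, which read CCGCCC where the box lies on the other strand.
Cep83os: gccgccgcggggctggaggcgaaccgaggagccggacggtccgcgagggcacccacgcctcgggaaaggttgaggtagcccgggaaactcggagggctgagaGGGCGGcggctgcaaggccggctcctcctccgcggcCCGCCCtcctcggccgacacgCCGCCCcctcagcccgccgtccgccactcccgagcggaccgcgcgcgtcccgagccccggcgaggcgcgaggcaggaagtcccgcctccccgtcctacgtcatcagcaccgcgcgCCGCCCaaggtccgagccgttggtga
Mkln1os: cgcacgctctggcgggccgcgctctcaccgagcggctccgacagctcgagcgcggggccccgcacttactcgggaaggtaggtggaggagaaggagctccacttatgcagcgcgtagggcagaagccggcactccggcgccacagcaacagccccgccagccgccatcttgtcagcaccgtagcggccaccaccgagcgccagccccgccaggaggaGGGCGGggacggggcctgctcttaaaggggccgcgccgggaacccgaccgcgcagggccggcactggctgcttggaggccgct
Stamos: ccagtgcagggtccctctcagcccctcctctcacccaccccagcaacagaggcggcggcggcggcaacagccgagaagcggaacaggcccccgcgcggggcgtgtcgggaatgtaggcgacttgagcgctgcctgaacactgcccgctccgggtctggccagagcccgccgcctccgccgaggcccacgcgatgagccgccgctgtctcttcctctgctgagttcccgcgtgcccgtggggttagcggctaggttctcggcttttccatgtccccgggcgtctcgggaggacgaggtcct
Tomm6os: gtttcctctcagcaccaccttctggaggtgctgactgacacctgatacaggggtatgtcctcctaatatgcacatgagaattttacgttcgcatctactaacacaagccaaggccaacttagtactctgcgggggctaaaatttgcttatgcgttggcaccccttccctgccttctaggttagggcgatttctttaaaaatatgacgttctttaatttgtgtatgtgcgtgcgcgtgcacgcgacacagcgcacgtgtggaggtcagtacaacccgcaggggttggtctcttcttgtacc

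Cep83os lay at chr10:94688564-94688863, minus strand, Mkln1os at chr6:31398724-31399023, minus strand, Stamos at chr2:14073885-14074184, minus strand, and Tomm6os at chr17:47687360-47687659, plus strand. The annotated starts of Cep83, Mkln1 and Stam fell inside these windows, so that these hold the starts of both genes, whereas the Tomm6os window lay inside Tomm6. Both strands were searched for the GC box GGGCGG, for the letters CCAAT bound by the factor NF-Y, and for the TATA box TATAAA. Cep83os held 4 copies of GGGCGG, Mkln1os 1 and the others 0, and none of the 4 windows held the other motifs, so no motif overlapped another. Windows of 179 of the provisional and antisense genes could be matched. GGGCGG was present in 67.0% of them, in 69.6% of the windows of the other listed genes and in 35.9% of all 27025 RefSeq promoters. CCAAT was present in 37.4%, 42.2% and 38.0% in that order, and TATAAA in 5.59%, 6.30% and 14.2%. Median GC content was 62.0% in the provisional and antisense genes, 61.7% in the other listed genes and 52.7% in all promoters. By these letters the listed GM, RIK and OS promoters were like those of the other listed genes.

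Ratios were low at the start and high at the end, as over the other genes. At the TSS 232 of the genes were listed, 14 of them there only, with a median ratio of 0.166 in Carm1 KO cells and 0.0853 in control cells. The other genes had 0.166 in Carm1 KO cells and 0.0805 in control cells. At the TES 220 were listed, with 2.04 in Carm1 KO cells and 1.02 in control cells, against 3.10 in Carm1 KO cells and 1.80 in control cells for the other genes. Annotated coding members had a median TES ratio of 2.77 in Carm1 KO cells and 1.23 in control cells, and long noncoding members had 1.78 in Carm1 KO cells and 0.965 in control cells. The ratio at gene ends was thus lower in provisional and antisense genes than in the rest in both kinds of cells, while that at gene starts was close to the rest.

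**Figure D1:**
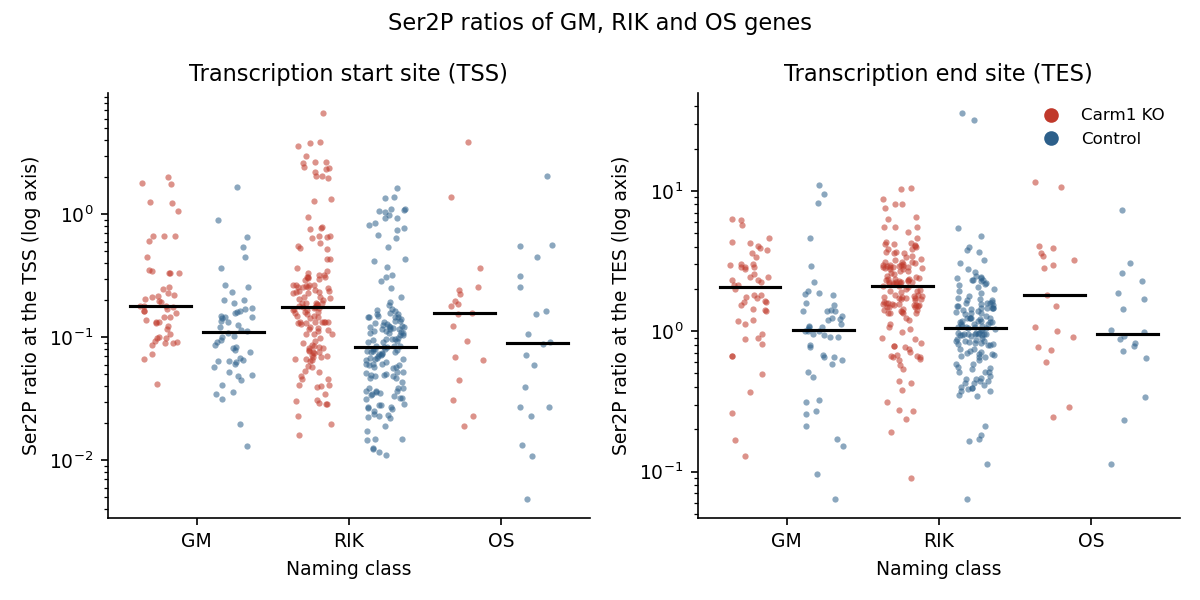
Each point is the Ser2P ratio of 1 GM, RIK or OS gene at the TSS (left) and TES (right) on a log axis, with Carm1 KO left of control in each naming class and a black bar at the median of the values above 0. Genes listed at 0 (17 in Carm1 KO and 8 in control at the TSS, 2 and 6 at the TES) cannot be drawn, and on the deposited scale the bar of every class is higher in Carm1 KO than in control at both ends.

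The lower TES ratio was found mainly in the longer genes. In Carm1 KO cells the median TES ratio of GM, RIK and OS genes was 0.888 up to 2000 bp, 1.68 up to 5000 bp, 2.19 up to 10000 bp, 2.89 up to 20000 bp, 3.12 up to 50000 bp and 2.91 beyond. Other genes in the same length ranges had 1.00, 1.74, 2.29, 3.20, 4.83 and 4.79 in Carm1 KO cells. In control cells the provisional and antisense genes had 0.560, 0.860, 1.04, 1.40, 1.54 and 2.38, against 0.696, 0.919, 1.15, 1.61, 2.86 and 4.53 for the others in control cells. Below 20000 bp the values thus lay close together, and above it those of the GM, RIK and OS genes were lower in both kinds of cells.

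At the TSS, on the deposited scale, the ratio of most provisional and antisense genes was higher in Carm1 KO cells, about as for the rest of the table. Of 213 genes above 0 in both kinds of cells, 140 (65.7%) were at least 1.5-fold higher, 20 were at least 1.5-fold lower and 53 lay between. The same thresholds called 71.2% of all 2859 compared genes higher and 5.6% lower. The median log2 change (Carm1 KO over control) was 0.97 in GM, RIK and OS genes and 1.19 in the others. Once the median of all listed genes, 1.17, was subtracted, that of the GM, RIK and OS genes was -0.20. Of the 213 genes 46 were then higher and 73 lower, where 28.6% and 28.8% of all genes were. On that scale the share of higher genes lay below the share over all genes, and the share of lower ones above it. By class the median was 1.00 in GM genes (33 higher and 4 lower of 52), 0.97 in RIK genes (98 and 13 of 142) and 0.54 in OS genes (9 and 3 of 19). All 3 medians were below 0 after that subtraction. The OS median was also below 0, at -0.073 over 7 genes, when values shared by several genes were left out. The scale between the libraries is not given, and the direction of the TSS medians depends on the scale used. They stayed above 0, at 0.58 over all and 0.15 in OS genes, when a factor found in each kind of cells was removed instead.

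The RIK genes with the greatest TSS change were noncoding for the most part, as was the class, with 95 of 148 annotated RIK genes long noncoding (64.2%). 5031434O11RIK, a processed transcript head to head with Setd7, had a TSS ratio of 0.310 in Carm1 KO cells and 0.0189 in control cells, a log2 change of 4.04. 9330151L19RIK had 0.179 in Carm1 KO cells and 0.0111 in control cells (4.02), 4930405A21RIK 0.200 in Carm1 KO cells and 0.0174 in control cells (3.52), and 1700105P06RIK 0.149 in Carm1 KO cells and 0.0149 in control cells (3.32). 2310057M21RIK, a coding gene, had 0.258 in Carm1 KO cells and 0.0273 in control cells (3.24). In each of these the control ratio lay below the median of its class and the Carm1 KO ratio near or above it. This is a description only, since the genes were picked by the size of their change. Among GM genes, GM45935 had 0.176 in Carm1 KO cells and 0.0198 in control cells (3.15), and GM16537 had 1.07 in Carm1 KO cells and 0.122 in control cells (3.13), followed by GM10687 (2.64), GM20544 (2.63) and GM10575 (2.30). GM10687 is antisense to the start of Mcam, which encodes the melanoma cell adhesion molecule, and had a TSS ratio of 1.24 in Carm1 KO cells and 0.200 in control cells.

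The 5 RIK genes that fell furthest at the TSS were 2810004N23RIK, with 0.0286 in Carm1 KO cells and 0.105 in control cells (log2 change -1.88), 2610306M01RIK (-1.80), 0610040F04RIK (-1.12), 6820431F20RIK (-0.88) and 2310068J16RIK (-0.88). 2610306M01RIK starts head to head with Aak1, a kinase of clathrin-coated vesicles, and 0610040F04RIK with Bhlhe40, a transcription factor of the circadian clock. Of GM genes, GM38431 (-1.15), GM26688 (-1.11), GM5617 (-0.97) and GM13029 (-0.70) passed the threshold, while GM5129 (-0.58) did not. GM26688 had 0.123 in Carm1 KO cells and 0.267 in control cells.

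On the deposited scale gene ends gave a similar picture, with higher ratios in Carm1 KO cells for most of these genes, at about the rate of the whole table. Of 214 compared genes 151 (70.6%) were at least 1.5-fold higher and 15 at least 1.5-fold lower, where the thresholds called 66.7% and 7.13% of all 3016 compared genes. The median log2 change was 0.92, against 0.85 in the other genes, and 0.072 with the median of all genes, 0.85, subtracted, when 50 genes were higher and 44 lower where 11.6% and 22.0% of all genes were. On that scale the share of higher genes, 23.4%, lay above the share over all genes, and the share of lower ones, 20.6%, close to it. The median as deposited was 1.10 in GM genes (37 higher and 3 lower of 50), 0.89 in RIK genes (103 and 10 of 146) and 0.83 in OS genes (11 and 2 of 18), of which the OS median alone fell below 0, to -0.023, after the subtraction.

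Some of the greatest TES changes were in antisense genes with very low control ratios. 3110045C21RIK, antisense beside Hsd17b7, a gene of cholesterol and steroid synthesis, had a TES ratio of 2.24 in Carm1 KO cells and 0.0643 in control cells, a log2 change of 5.12. GM11423, beside the DNA ligase gene Lig3, had 2.89 in Carm1 KO cells and 0.257 in control cells (3.49). 1700113A16RIK had 1.55 in Carm1 KO cells and 0.171 in control cells (3.18), and 2610027K06RIK, head to head with Tbx2, a T-box factor of the melanocyte lineage, had 10.4 in Carm1 KO cells and 1.54 in control cells (2.75). C130046K22RIK had 8.05 in Carm1 KO cells and 1.51 in control cells (2.42). Of these 5, 3 had a control ratio well below the class median, while 2610027K06RIK and C130046K22RIK were above the median in both kinds of cells. Low control ratios are a description only here, since the genes were picked by their change. In the GM class GM17484 (2.59), GM38560 (2.38), GM16740 (1.81) and GM13029 (1.80) followed.

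Several of the lowest TES changes belonged to genes that were among the highest in control cells. A coding RIK gene head to head with Dbi, which encodes an acyl-CoA binding protein, had a TES ratio of 10.3 in Carm1 KO cells and 36.0 in control cells (log2 change -1.81). 1110008L16RIK had 7.61 in Carm1 KO cells and 31.9 in control cells (-2.07). GM14005, a lincRNA gene of 324447 bp and the longest of the set, had 2.33 in Carm1 KO cells and 11.0 in control cells (-2.24), GM44505 had 3.78 in Carm1 KO cells and 9.49 in control cells (-1.33) and GM45935 had 1.61 in Carm1 KO cells and 8.23 in control cells (-2.35). All 5 of the highest control values were thus lower in Carm1 KO cells, which is a description only, since the genes were picked by their control value. 1600023N17RIK (-1.30) and 1700101I11RIK (-1.04) fell as well, to 0.268 and 0.192 in Carm1 KO cells, against 0.661 and 0.395 in control cells. GM4876 (-0.20) and GM5129 (-0.31) did not pass the threshold.

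Across both ends 198 genes had all 4 values above 0. Of these, on the deposited scale, 97 (49.0%) were at least 1.5-fold higher at both ends and 2 (1.01%) were lower at both. Another 9 (4.55%) were higher at the TSS and lower at the TES, and 14 (7.07%) were lower at the TSS and higher at the TES. Among the other 2577 genes the counts in that order were 1268 (49.2%), 15 (0.58%), 118 (4.58%) and 81 (3.14%). The share higher at both ends was thus about that of the other genes. Genes higher at both ends with the greatest summed change included 5031434O11RIK, with TES ratios of 5.56 in Carm1 KO cells and 0.955 in control cells (2.54), 2610318N02RIK (3.19 at the TSS and 1.45 at the TES), 4930526I15RIK (2.39 and 1.68), C230037L18RIK (3.23 and 0.83), 6030458C11RIK (2.30 and 1.75) and 2810410L24RIK (2.79 and 1.23). 6030458C11RIK starts head to head with Drosha, which encodes the nuclease that crops primary miRNAs.

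The genes lower at both ends were FBXL12OS and the lincRNA gene 2610035D17RIK. FBXL12OS had a TSS ratio of 0.179 in Carm1 KO cells and 0.557 in control cells (-1.64), and a TES ratio of 1.07 in Carm1 KO cells and 3.08 in control cells (-1.52). 2610035D17RIK, of 157944 bp, had TSS ratios of 0.0162 in Carm1 KO cells and 0.0267 in control cells (-0.72) and TES ratios of 2.93 in Carm1 KO cells and 5.43 in control cells (-0.89). Genes that moved in opposite directions included 2810004N23RIK, lower at the TSS and higher at the TES (1.23), with 9530062K07RIK (-0.86 and 1.99), 6030443J06RIK (-0.74 and 1.71) and 1700125G22RIK (-0.72 and 1.47) of the same kind. The reverse, higher at the TSS and lower at the TES, held for GM45935, A230072C01RIK (2.49 and -0.72) and 1700120C14RIK (0.97 and -0.98), among others.

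**Figure D2:**
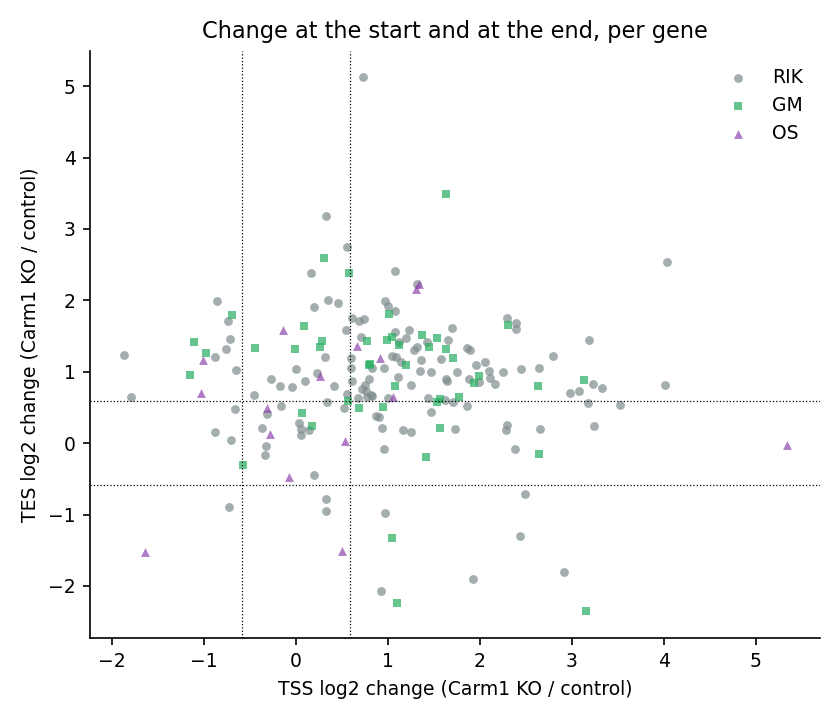
Each point is 1 of the 198 GM, RIK or OS genes with all 4 values above 0, with its log2 change (Carm1 KO over control) at the TSS across and at the TES up the page, and dotted lines at 1.5-fold. On the deposited scale the upper right field holds 97 genes, the lower left 2, the lower right 9 and the upper left 14.

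The gradient along the gene was shallower in these genes than in the rest, and its median was nearly the same in both kinds of cells. The TES ratio divided by the TSS ratio had a median of 10.7 in Carm1 KO cells and 10.6 in control cells in the GM, RIK and OS genes, against 16.7 in Carm1 KO cells and 22.0 in control cells in the others. The GM, RIK and OS genes were also shorter than the others, and the part of gene length in these medians was not tested. The scale of each library cancels when the change of this quotient is taken. Its median log2 change was 0.01 in the provisional and antisense genes, with 62 at least 1.5-fold higher and 66 at least 1.5-fold lower of 198, and -0.43 in the others. By class it was 0.046 in GM genes, -0.040 in RIK genes and 0.55 in OS genes, where 8 of 16 were higher and 2 lower. Over all 2775 genes with 4 values 19.8% were higher and 44.2% lower. Within the 6 length ranges used above, shortest first, the median was 0.18, -0.038, 0.069, 0.36, 0.25 and -0.98 in GM, RIK and OS genes, against -0.18, -0.22, -0.11, -0.23, -0.54 and -1.21 in the others. The median of the named set was above that of the other genes in all 6 ranges, with quartiles that overlapped in each. No test of this difference was possible with 1 library per group.

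**Figure D3:**
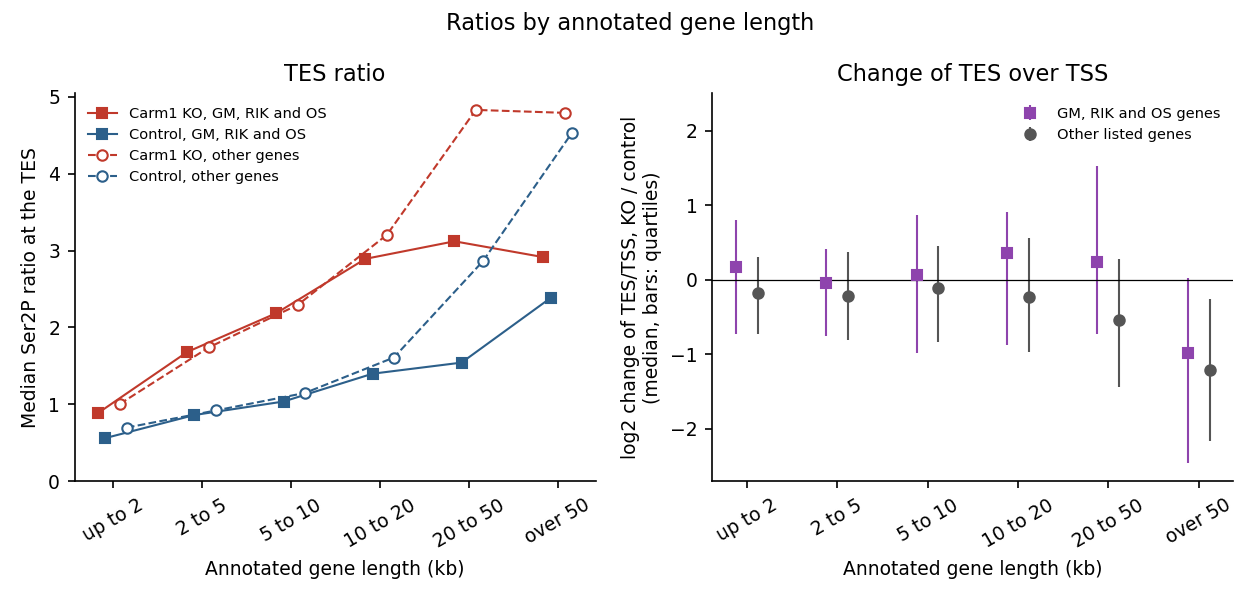
Left, the median Ser2P ratio at the TES by annotated gene length, for Carm1 KO (red) and control (blue), with GM, RIK and OS genes as filled squares and other genes as open circles. Right, the median log2 change of TES over TSS (Carm1 KO over control) with bars from the first to the third quartile, which reaches -0.98 in GM, RIK and OS genes and -1.21 in other genes longer than 50000 bp.

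The OS genes were set beside the gene whose symbol remains when OS is removed. Of 22 OS genes 12 had this sense partner in the tables, of which 6 started head to head with it without overlap and 5 overlapped it, and GGNBP2OS had no annotated position in GENCODE M21. At the TSS 9 pairs could be compared. The median log2 change was 0.54 in the OS genes and 1.78 in their partners, and the OS gene had the smaller change in 8 pairs. The median difference, OS gene minus partner, was -1.02. At the TES 9 pairs could be compared, with a median of 0.95 in OS genes and 0.64 in partners, and the OS gene had the greater change in 6, with a median difference of 1.45, or 0.74 with a pseudocount that keeps the zeros in. These differences do not depend on the scale between the libraries.

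CEP83OS shares its promoter region with Cep83, which encodes a protein of the distal appendages that anchor centrioles for cilia, with the starts 78 bp apart. At the TES CEP83OS had a ratio of 10.6 in Carm1 KO cells and 2.26 in control cells (log2 change 2.23), while CEP83 had 0.671 in Carm1 KO cells and 1.85 in control cells (-1.46). At the TSS both were higher, CEP83OS with 0.0688 in Carm1 KO cells and 0.0271 in control cells (1.34) and CEP83 with 0.336 in Carm1 KO cells and 0.0685 in control cells (2.29). The pair moved in opposite directions at the far ends of both genes, and in the same direction at the shared start.

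MKLN1OS overlaps the start of Mkln1, which encodes muskelin, a subunit of the CTLH ubiquitin ligase. Its TSS ratio was 0.224 in Carm1 KO cells and 0.450 in control cells (-1.01), while that of MKLN1 was 0.835 in Carm1 KO cells and 0.0668 in control cells (3.64). This was the pair with opposite TSS changes past 1.5-fold, although the starts lie 38 bp apart. At the TES MKLN1OS had 3.22 in Carm1 KO cells and 1.44 in control cells (1.16), and MKLN1 had 0.915 in Carm1 KO cells and 1.33 in control cells (-0.54), which did not pass the threshold. Every MKLN1OS ratio, at both ends and in both kinds of cells, was shared with another listed gene and may rest on few reads.

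BLOC1S6OS, head to head with Bloc1s6, which encodes pallidin, a subunit of a complex that sorts cargo to melanosomes, had the greatest TSS change of all the GM, RIK and OS genes. Its TSS ratio was 0.198 in Carm1 KO cells and 0.00490 in control cells (5.34), against 0.0895 in Carm1 KO cells and 0.0623 in control cells for BLOC1S6 (0.52). At the TES BLOC1S6OS had 1.01 in Carm1 KO cells and 1.03 in control cells (-0.03). The change was thus at the start of the antisense gene, and its control value was the lowest above 0 of any OS gene at the TSS. Its control TES ratio, 1.03, was shared by 28 genes. Such values may rest on few reads, which could not be checked without counts.

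APPBP2OS and RBM3OS each overlap the start of their partner. APPBP2OS had TSS ratios of 0.0450 in Carm1 KO cells and 0.0919 in control cells (-1.03) and TES ratios of 1.51 in Carm1 KO cells and 0.925 in control cells (0.71), whereas APPBP2, a substrate receptor of a ubiquitin ligase, had TES ratios of 2.29 in Carm1 KO cells and 6.09 in control cells (-1.41). RBM3OS had TES ratios of 0.288 in Carm1 KO cells and 0.823 in control cells (-1.52), and RBM3, a cold-induced RNA-binding protein, had 2.101 in Carm1 KO cells and 0.969 in control cells (1.12). Together with CEP83OS these were the 3 pairs that moved in opposite directions past 1.5-fold at the TES on the deposited scale. With the TES median of all genes, 0.85, subtracted, APPBP2OS was at -0.14, below 0 like APPBP2. RBM3, at 1.12 as deposited, was then less than 1.5-fold higher. CEP83OS was then at 1.38, and CEP83 was still lower past 1.5-fold.

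STAMOS had TES ratios of 0.732 in Carm1 KO cells and 0.720 in control cells (0.02), while STAM, an adaptor of endosomal sorting, had 2.18 in Carm1 KO cells and 7.03 in control cells (-1.69). At the TSS STAMOS had 0.155 in Carm1 KO cells and 0.107 in control cells (0.54) and STAM 0.200 in Carm1 KO cells and 0.0428 in control cells (2.23). BRIP1OS had TSS ratios of 0.241 in Carm1 KO cells and 0.0886 in control cells (1.44), and BRIP1, a helicase of DNA repair, 0.632 in Carm1 KO cells and 0.184 in control cells (1.78). RAB10OS had log2 changes of 0.26 at the TSS and 0.95 at the TES, and RAB10, a GTPase of membrane traffic, had 1.28 and 0.64. BRIP1OS was listed at the TSS alone.

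Of the remaining pairs several held zeros. FMR1OS, head to head with Fmr1, the gene of the RNA-binding protein lost in fragile X syndrome, had a TES ratio of 4.03 in Carm1 KO cells and was listed at 0 in control cells, and FMR1 had 6.04 in Carm1 KO cells and 11.9 in control cells (-0.97). At the TSS FMR1OS had 0.0312 in Carm1 KO cells and 0.0134 in control cells (1.23), and FMR1 0.102 in Carm1 KO cells and 0.0159 in control cells (2.67). MAP2K3OS was listed at 0 at the TSS in Carm1 KO cells and at 0.0271 in control cells, and MAP2K3, a kinase that activates p38, had 0.0737 in Carm1 KO cells and 0.0588 in control cells (0.32). At the TES MAP2K3OS had 3.44 in Carm1 KO cells and 1.69 in control cells (1.02) and MAP2K3 6.08 in Carm1 KO cells and 2.51 in control cells (1.28). GGNBP2OS was listed at 0 in both kinds of cells at the TSS and had TES ratios of 0.773 in Carm1 KO cells and 0.113 in control cells (2.77), with GGNBP2 at 8.42 in Carm1 KO cells and 3.38 in control cells (1.32). PPIFOS was listed at the TES alone, at 0 in both, beside 2.37 in Carm1 KO cells and 1.11 in control cells for PPIF (1.10), which encodes cyclophilin D of mitochondria.

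**Figure D4:**
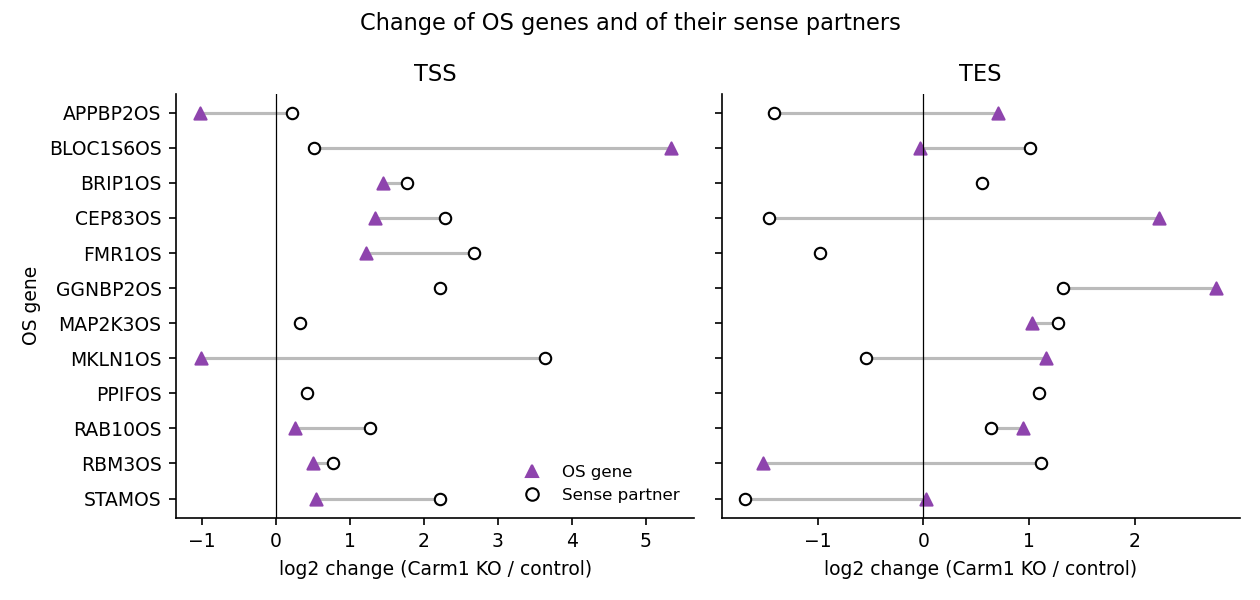
Log2 change (Carm1 KO over control) of each OS gene (purple triangle) and of its sense partner (open circle), joined by a line where both could be computed, at the TSS (left) and the TES (right). At the TSS the triangle lies left of the circle in 8 of 9 pairs, and at the TES it lies right of it in 6 of 9.

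Of the OS genes without a listed partner, RSF1OS2 (1.66), SELENOS (1.31) and SOX6OS (0.66) were higher at the TSS, as was TOMM6OS. SELENOS had TES ratios of 3.93 in Carm1 KO cells and 0.878 in control cells (2.16), RAB11FIP4OS1 2.98 in Carm1 KO cells and 0.991 in control cells (1.59), and SOX6OS 0.601 in Carm1 KO cells and 0.235 in control cells (1.36). ZEB2OS, inside the gene of a transcription factor of melanocytes, had 0.157 in Carm1 KO cells and 0.165 in control cells at the TSS (-0.07), and TES ratios of 0.245 in Carm1 KO cells and 0.340 in control cells (-0.47), neither past the threshold. EPB41L4AOS had log2 changes of -0.31 at the TSS and 0.50 at the TES. SLC7A6OS, which starts 1 bp from Prmt7, an arginine methyltransferase gene, had TSS ratios of 0.0189 in Carm1 KO cells and 0.0230 in control cells (-0.28). PRMT7 had TSS ratios of 0.526 in Carm1 KO cells and 0.0876 in control cells (2.59).

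The wider set of head-to-head pairs, formed by annotation in place of symbol, gave a smaller contrast. For 96 of the GM, RIK and OS genes the gene starting head to head was itself listed and not of the set. The median TSS ratio was 0.147 in Carm1 KO cells and 0.0786 in control cells, against 0.165 in Carm1 KO cells and 0.0755 in control cells in the neighbours, and the provisional or antisense gene had the higher ratio in 41 pairs in Carm1 KO cells and 48 in control cells. At the TES, in 87 pairs, it had 2.23 in Carm1 KO cells and 1.01 in control cells, against 3.17 in Carm1 KO cells and 1.85 in control cells in the neighbours. Median TSS changes were 0.81 in the set and 1.12 in the neighbours (77 pairs), and median TES changes 0.99 and 0.77 (84 pairs). Taken singly, 46 genes of the set and 58 neighbours were at least 1.5-fold higher in the 77 TSS pairs, and 61 and 49 in the 84 TES pairs. Both genes of a pair were at least 1.5-fold higher in 35 of 77 pairs at the TSS and in 35 of 84 at the TES. Whether these joint counts differ from those of unrelated genes was not tested. The changes were hardly ordered alike across pairs, with Spearman's rho of 0.01 at the TSS and 0.05 at the TES over pairs from the same libraries. In 0 pairs were the 2 values equal.

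A start near the end of another gene went with a high TSS ratio. For 15 of the genes listed at the TSS, some other annotated gene ended no more than 1 kb away, and their median TSS ratio was 0.959 in Carm1 KO cells and 0.557 in control cells. In the 200 without such an end it was 0.156 in Carm1 KO cells and 0.0807 in control cells. Among the other listed genes the medians were 1.25 in Carm1 KO cells and 0.466 in control cells with such an end, and 0.152 in Carm1 KO cells and 0.0764 in control cells without. TOMM6OS, which starts inside the gene of a small subunit of the mitochondrial import pore, had the highest control value at the TSS of all GM, RIK and OS genes, with 3.87 in Carm1 KO cells and 2.06 in control cells (0.91). GM16861 (2.01 in Carm1 KO cells and 1.68 in control cells), C030006K11RIK (3.59 in Carm1 KO cells and 1.63 in control cells), A430057M04RIK (3.83 in Carm1 KO cells and 1.38 in control cells) and 1700094D03RIK (2.05 in Carm1 KO cells and 1.35 in control cells) followed. Among these, TOMM6OS and C030006K11RIK started within 1 kb of the end of another gene, while GM16861 and A430057M04RIK did not. 1700094D03RIK had no annotated position in GENCODE M21. The part of reads from the neighbouring gene in these values was not tested.

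**Figure D5:**
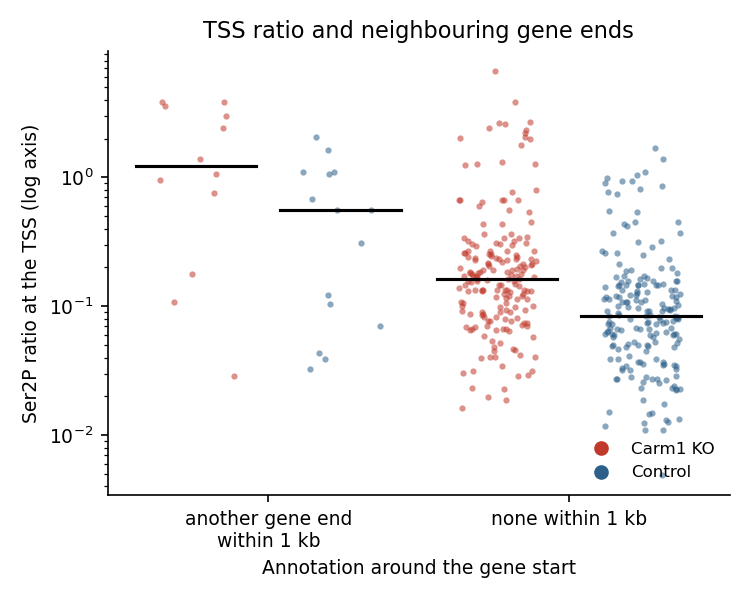
TSS Ser2P ratio on a log axis of each annotated GM, RIK or OS gene above 0, with Carm1 KO left of control, for genes that start within 1 kb of the end of another gene and for the rest. Black bars are medians of the values above 0, and those of the left group lie higher in both kinds of cells.

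A control TSS ratio at or above the 90th percentile of all listed genes, 0.571, was found in 21 GM, RIK and OS genes, and all 21 were higher in Carm1 KO cells on the deposited scale, past 1.5-fold or not, as were 287 of 292 other genes at or above it (98.3%). Of the 18 annotated ones 6 started within 1 kb of a gene end, against 127 of 291 such other genes. The TSS ratio was above the TES ratio in 9 of 218 genes in Carm1 KO cells (4.13%) and in 15 in control cells (6.88%), with 4 in both. Among the other 2807 genes it was so in 5.99% in Carm1 KO cells and 2.78% in control cells. Of the 15, 5 counted only because their control TES was listed at 0, and among the 198 genes with all 4 values above 0 the TSS ratio was the higher in 9 in Carm1 KO cells and 10 in control cells. 3110040N11RIK, a coding gene, had TSS ratios of 6.69 in Carm1 KO cells and 0.740 in control cells (3.18), with TES ratios of 2.15 in Carm1 KO cells and 1.46 in control cells. 4833420G17RIK had TSS ratios of 2.68 in Carm1 KO cells and 0.853 in control cells (1.65) and A730063M14RIK 2.42 in Carm1 KO cells and 0.815 in control cells (1.57). 5730408K05RIK had nearly the same ratio at both ends, 0.660 at the TSS and 0.673 at the TES in Carm1 KO cells, and 0.637 at the TSS and 0.621 at the TES in control cells.

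Zeros at the TSS were more frequent in Carm1 KO cells over the whole table. Of the 232 genes 17 (7.33%) were listed at 0 in Carm1 KO cells and 8 (3.45%) in control cells, close to the 6.15% in Carm1 KO cells and 3.23% in control cells of the other genes. Of the members at 0, 11 were so in Carm1 KO cells alone, 2 in control cells alone and 6 in both. The 11 included 6330549D23RIK (0.134 in control cells), GM4890 (0.102) and 3010003L21RIK (0.0964), and the 2 were GM15760 (0.671 in Carm1 KO cells) and 4921531C22RIK (0.0196). At the TES 2 of 220 (0.909%) were at 0 in Carm1 KO cells and 6 (2.73%) in control cells, against 5 of 2810 other genes (0.178%) in each kind of cells, and the 4 in control cells alone were 0610039K10RIK, FMR1OS, GM19710 and GM2093. No fold was computed for any of them. Values were coarse as well: 129 of the genes at the TSS (55.6%) had exactly the ratio of another gene in Carm1 KO cells and 98 (42.2%) did in control cells, against 51.4% in Carm1 KO cells and 38.0% in control cells of the other genes. At the TES 35.9% did in Carm1 KO cells and 29.5% in control cells, against 24.2% in Carm1 KO cells and 21.8% in control cells of the other genes. GM15760, GM20544 and 2610318N02RIK, for example, all had a TSS ratio of 0.671 in Carm1 KO cells.

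Noncoding RNA genes with a given name were looked up for comparison, and 23 of 48 were listed. Their median TSS change was 0.72, with 13 higher and 3 lower of 23, and their median TES change 0.59, with 10 higher and 2 lower of 19, and both medians fell below 0, to -0.44 and -0.26, once the median of all genes was subtracted. Their TES ratios had a median of 1.45 in Carm1 KO cells and 0.903 in control cells, lower than in the other coding genes (3.14 in Carm1 KO cells and 1.83 in control cells), as in the long noncoding members. ZFAS1, a host of small nucleolar RNAs, had TSS ratios of 0.0102 in Carm1 KO cells and 0.0584 in control cells (-2.52) and TES ratios of 1.63 in Carm1 KO cells and 0.833 in control cells (0.96). TUG1 was higher at the TES (1.31). RMRP, the short RNA of a ribonuclease, had 0.384 in Carm1 KO cells and 0.673 in control cells at the TSS, and TES ratios of 0.383 in Carm1 KO cells and 0.672 in control cells, so that both ends gave nearly the same value.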

How the data were processed

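mNET-seq libraries from B16F10 cells, 1 each for Ser2P and Pol II in Carm1 KO and control cells, were summarised by the authors in 2 tables, for the TSS and the TES. Each deposited value is a linear ratio, called a Ser2 fraction per the file headers, and values exceed 1. The deposited difference column, another value made by the authors, equalled Carm1 KO minus control within 1e-09 in all 3112 TSS and 3030 TES genes and was left aside. Per the submitters' processing notes, cutadapt 1.18 and TopHat2 2.1.1 were used with builds mm10 and GRCm38; the sources used here do not give window widths, scaling, strand use or how genes were chosen. The tables hold no read counts, so depth and precision are unknown.

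Genes were grouped by symbol. The change was log2(Carm1 KO / control) without a pseudocount, a value of 0 gave no fold, and higher or lower means at least 1.5-fold (a log2 change of 0.58). No test was run, since each group holds 1 library. All rows were computed, in Python 3.11.15 with pandas 2.3.3, and the threshold count was tested on simulated data. Gene positions came from GENCODE M21 and RefSeq GRCm38.p6, matched by symbol without regard to case. The genes and lists were chosen with earlier results of these data known. Named genes are the OS genes with a listed partner, the 5 greatest changes each way per class and end, genes past the threshold at both ends, genes at 0 in 1 kind of cells or with a TSS ratio above the TES ratio, the 5 highest control values per end and the 5 longest; those printed follow this rule, except GM25500, A730008H23RIK and MINOS1, which are named for their annotation only and with no value. Alternatives were another scale, a pseudocount, a 2-fold threshold, and leaving out low values, shared values, genes in 1 table or genes near another.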

Additional observations from a re-analysis of the deposited data

How the results depend on the processing

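No paired analysis was possible because each group is 1 library and the labels give no shared replicate numbers; for the same reason no replicate could be left out. With the median of all genes subtracted, the TSS counts were 46 higher and 73 lower (as deposited 140 and 20) and the TES counts 50 and 44 (151 and 15). The TSS medians were then -0.20 over all, -0.17 in GM, -0.20 in RIK and -0.63 in OS genes, and the TES medians 0.072, 0.25, 0.038 and -0.023. Every ratio was found, after seeing the data, to be a whole-number ratio times 1 factor per kind of cells, 1.34 in Carm1 KO and 1.03 in control; with it removed the medians were 0.58, 0.62, 0.59 and 0.15 for the TSS, and for the TES 0.54, 0.72, 0.50 and 0.44, and 31 genes were lower at the TSS. Without shared values 38 were higher and 2 lower of 60 left at the TSS, with an OS median of -0.073 over 7 genes. At the TES 86 were then higher and 3 lower of 110 left, with an OS median of 1.11 over 8 genes. Without low values 12 of 169 left were lower at the TSS, and 77 were higher and 9 lower of 104 left at the TES. Without genes near another, 46 were higher and 5 lower of 76 left at the TSS. At 2-fold, 8 of 213 were lower at the TSS and 98 of 214 higher at the TES. The OS minus partner median at the TES was 1.01 with annotated neighbours and 0.74 with a pseudocount. The cause of these moves was not tested beyond the fewer genes left. Subtracting the median turned the sign of 25 named TSS changes and 18 named TES changes, of which 10 at each end had not passed 1.5-fold as deposited; those that had were, at the TSS, 0610039K10RIK -0.34, 1110008L16RIK -0.25, 1600002K03RIK -0.056, 1700001P01RIK -0.19, 1700094D03RIK -0.56, 1700120C14RIK -0.20, 3110045C21RIK -0.43, A730085K08RIK -0.10, C030006K11RIK -0.028, C130046K22RIK -0.087, GM14005 -0.066, GM16740 -0.15, GM44505 -0.12, SOX6OS -0.51, TOMM6OS -0.26, and at the TES 1700105P06RIK -0.082, 2610306M01RIK -0.20, 4921531C22RIK -0.18, 9330151L19RIK -0.034, A930005H10RIK -0.13, APPBP2OS -0.14, C230037L18RIK -0.024, GM20544 -0.050. The gradient median, 0.0092, was -0.041 without low values and 0.17 without shared ones. Unknown depth limits the values near 0 most.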
